A study of Mus musculus with 6 samples.

Results

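Interferon-stimulated genes are the genes that a cell switches on when interferon, the antiviral signal of the immune system, reaches its surface. A set of 37 such mouse genes, chosen by name, was followed in liver RNA of mice given polystyrene microplastics (PS-MP) by mouth. All 37 names matched a single gene each among the 55536 gene identifiers of the files, and all 37 passed the low-count rule that left 13299 genes for testing. The set was divided into 10 type I-leaning genes (the Ifit, Oas, Oasl and Mx families and Isg15), 9 interferon-gamma-leaning genes (guanylate-binding proteins, immunity-related GTPases and Cxcl9) and 18 further genes. Tested mice were male C57BL/6 animals, an inbred laboratory strain, aged 6 weeks at the start, that received 0.4 mg of PS-MP per day with 2 dosings a week over 8 weeks. Control mice of the same strain, sex and age received water on the same schedule. Each group gave 3 liver RNA-seq libraries. Nothing in the labels states that each library is a different mouse; the p-values therefore reflect library-to-library spread, which may be technical.

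Type I interferons (alpha and beta) bind the receptor IFNAR1/IFNAR2, whose kinases JAK1 and TYK2 activate STAT proteins. STAT2 and IRF9 are subunits of the resulting factor ISGF3, which binds the interferon-stimulated response element. Interferon gamma, made by T and NK cells, binds IFNGR1/IFNGR2 and acts mainly at gamma-activated sites, turning on GTPases that attack intracellular parasites and bacteria. In liver, hepatocytes, Kupffer cells and endothelium can all respond.

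No gene of the set passed the test. In 9 of the 37, however, all 3 PS-MP values lay below all 3 water values and the unadjusted p was under 0.05: Igtp, Irf9, Irgm2, Isg15, Zbp1, Stat2, Xaf1, Cmpk2 and Irgm1. These were ISGF3 subunits, Isg15, 3 GTPases of the Irg family and 3 single effectors. In the remaining 28 genes, which include every Ifit, Oas, Oasl, Mx and Gbp gene of the set, the unadjusted p was 0.05 or more. At an adjusted p under 0.05 (Benjamini-Hochberg over all 13299 genes, limma-trend on log2(FPKM + 0.5)), 0.248% of all genes tested were lower and 0.241% higher in PS-MP. At an unadjusted p under 0.05, 24.3% of the set (9 of 37) were lower, against 5.57% of all genes tested, and 0 of 37 were higher, against 7.49%. Groups did not overlap, with PS-MP lower, in the same 9 genes, against 8.12% of all genes tested. They did not overlap with PS-MP higher in 2 (Irf1 and Mx2), against 11.1%. For the 37 genes the log2 fold changes had a median of -0.03, and for all genes tested of 0.01. Negative fold changes were found for 27 of 37, against 46.3% of all genes tested, and positive ones for 10 of 37, against 53.7%. Genes of the set can vary together between libraries, so these counts are not 37 independent observations, and no set test was run. FPKM divides a gene's reads by its exon length and by the library total, so levels of different genes can be set side by side, and a fold change here is on the scale of FPKM + 0.5, which understates the change of low genes.

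The count of 9 varied when a library was left out, which also weakens the test. It was 5 (13.5%) without PS-MP replicate 1 (Isg15, Irgm2, Igtp, Irf9 and Zbp1) and 5 without water replicate 3 (Isg15, Irgm2, Igtp, Irf9 and Stat2). Across all genes tested, 1562 and 1641 had an unadjusted p under 0.05 in either direction, against 1737 with all 6 libraries. The genes that dropped out had log2 fold changes of -0.20 (Irgm1), -0.18 (Stat2), -0.27 (Xaf1) and -0.20 (Cmpk2) without PS-MP replicate 1. Without water replicate 3 they had -0.17 (Irgm1), -0.32 (Zbp1), -0.27 (Xaf1) and -0.25 (Cmpk2). The median over the 37 genes was -0.01 without water replicate 1, -0.10 without PS-MP replicate 3, -0.09 without water replicate 2 and -0.08 without water replicate 3.

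Depth ran from 13082210 to 16948343 reads per library. Across all genes tested, 65 changed, and without PS-MP replicate 1, 2 or 3 the number was 36, 2 or 13, and without water replicate 1, 2 or 3 it was 3, 31 or 0. Hepatocyte transcripts (Alb, Apoa1, Ttr, Serpina1c, Fgb, Hpx) summed to 33840 to 41000 FPKM in PS-MP and 40860 to 43690 FPKM in water, as liver should give. Forebrain transcripts, foreign to liver, had 379 to 3487 reads in PS-MP, most of them in replicate 3, and 222 to 262 in water (12 genes). Brown fat transcripts had 4 to 235 reads in PS-MP and 15 to 577 in water (7 genes), with Ucp1 detected in PS-MP replicate 3 and water replicates 1 and 3. Leaving out PS-MP replicate 3, where forebrain reads were highest, also left 9 genes of the set lower at an unadjusted p under 0.05, with Psmb9 among them and Zbp1 not. Across all genes tested, 1531 had an unadjusted p under 0.05 without that library, in either direction. Leaving out the 3 libraries with Ucp1 reads left a lone water library. In that fit the log2 fold changes of the 9 genes named first ran from -0.42 (Igtp) to -0.20 (Zbp1). They were larger in size than with all 6 libraries for Irf9 (-0.41), Stat2 (-0.26), Irgm1 (-0.23), Xaf1 (-0.32) and Cmpk2 (-0.36). For Isg15 (-0.29), Irgm2 (-0.24), Igtp and Zbp1 they were smaller. The part of either transcript group in the results was not tested.

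Promoter sequence was searched for elements that some genes of the set have in common. Windows from 250 bases before to 50 bases after the start (RefSeq, GRCm38.p6) were found for 29 of the 37. The core of the interferon-stimulated response element, searched as GAAA, any 2 bases and GAAA on either strand, was present in 16 of the 29 (55.2%), against 3.99% of 27025 genes with a window. It was present in 4 of 7 type I-leaning and 6 of 8 interferon-gamma-leaning genes. Among the 9 genes above it was present in 5 of the 8 with a window (62.5%), and among the rest of the set in 11 of 21 (52.4%). The core of the STAT dimer site, TTCNNNGAA, which reads the same on both strands, was present in 8 of 29 (27.6%), against 9.55% of all genes. A match is a string of letters and not evidence of binding. The 150 bases before the start are shown for Isg15, Igtp and Irgm2, which had the lowest fold changes among genes with the element, and for Ifit1, whose groups overlapped; each is read 5′ to 3′ on the gene's strand, with matches to that core or its reverse complement in capitals.
Isg15 (chr4:156200819-156200968, minus strand): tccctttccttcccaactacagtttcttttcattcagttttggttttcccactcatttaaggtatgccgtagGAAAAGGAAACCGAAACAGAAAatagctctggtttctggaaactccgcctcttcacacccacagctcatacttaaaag
Igtp (chr11:58199406-58199555, plus strand): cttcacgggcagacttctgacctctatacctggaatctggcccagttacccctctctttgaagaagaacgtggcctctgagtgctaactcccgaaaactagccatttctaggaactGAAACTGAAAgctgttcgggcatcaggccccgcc
Irgm2 (chr11:58214827-58214976, plus strand): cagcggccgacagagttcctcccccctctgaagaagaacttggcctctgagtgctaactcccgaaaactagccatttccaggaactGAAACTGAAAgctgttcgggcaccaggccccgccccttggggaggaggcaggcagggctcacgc
Ifit1 (chr19:34640739-34640888, plus strand): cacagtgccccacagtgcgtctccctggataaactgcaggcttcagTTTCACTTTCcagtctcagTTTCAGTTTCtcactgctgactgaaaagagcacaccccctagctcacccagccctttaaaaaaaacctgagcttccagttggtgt

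Isg15 held 3 overlapping matches, the first beginning 78 bases before the start, and Ifit1 held 2, beginning 104 and 85 bases before it. Igtp and Irgm2 held a single match each, beginning 34 and 64 bases before their starts, with a STAT dimer core a few bases upstream of it (beginning 45 and 75 bases before the start). The windows of Igtp and Irgm2 aligned over 265 bases with 92.1% identity. Irf9, Xaf1 and Cmpk2 had no match to the response element core in their windows, and Zbp1 had no window. The Irf9 windows begin at 55603735 and 55604329, inside the annotated gene, which starts at 55603571. Sequence before that annotated start was therefore not searched. The Irgm2 window begins at 58214727, also inside the annotated gene, which starts at 58199618. The Irgm2 sequence shown therefore lies within the gene as annotated and not before its annotated start.

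**Figure D1:**
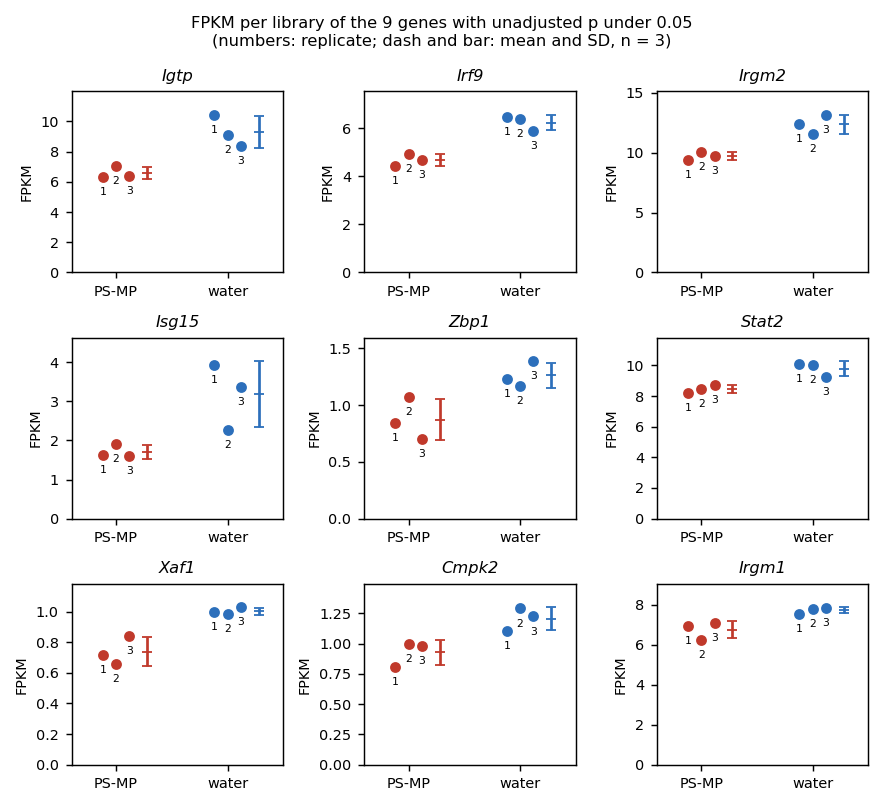
FPKM of the 9 genes with an unadjusted p under 0.05 in each liver library (y axis from 0; PS-MP in red on the left, water in blue on the right; numbers give the replicate, dash and bar the mean and SD, n = 3). In each panel the 3 PS-MP points lie below the 3 water points, and the water points of Isg15 run from 2.26 to 3.92 FPKM.

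Interferons themselves were at or near the limit of detection. Of 15 listed ligands and inducing cytokines, 9 were listed at 0 in all 6 libraries, including Ifnb1, the type I interferons Ifna1, Ifna2, Ifna4, Ifna5, Ifnz and Ifne, and the lambda interferons Ifnl2 and Ifnl3. A count of 0 allows up to 3 reads, or 0.177 to 0.229 CPM, depending on the library. Ifng had 0, 0 and 0 reads in PS-MP replicates 1, 2 and 3 and 0, 1 and 2 reads in water replicates 1, 2 and 3, a difference that is not detectable at this depth. Il18, which stimulates interferon gamma production, was the sole ligand to pass the low-count rule, with 7.86, 5.05 and 6.24 FPKM in PS-MP and 5.30, 3.03 and 5.08 FPKM in water. Its groups overlapped, with a log2 fold change of 0.48 ± 0.22 (SE; adjusted p = 0.396 by limma).

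Receptor chains and their kinases were all expressed in liver except Ifnlr1, the lambda interferon receptor chain, which had at most 5 reads in a library. Of the 8 tested, 2 had an unadjusted p under 0.05, both lower and none higher (25% lower, against 5.57% of all genes tested), and the median log2 fold change of the 8 was 0.03. Ifngr2, a chain of the interferon-gamma receptor, averaged 6.59 ± 0.56 FPKM in PS-MP and 8.03 ± 0.59 in water (SD, n = 3 each; log2 fold change -0.27, adjusted p = 0.276 by limma). Ifnar2, a chain of the type I receptor, averaged 11.9 ± 0.30 FPKM in PS-MP and 13.4 ± 0.76 in water (SD, n = 3 each; log2 fold change -0.17, adjusted p = 0.369 by limma). In both, all PS-MP values lay below all water values, and neither passed.

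Among the transcription factors, the ISGF3 subunits Irf9 and Stat2 had lower values in every PS-MP library, and Irf1 and Irf7 did not. Irf9, the DNA-binding subunit (chromosome 14, 55603571 to 55610030), had 4.43, 4.94 and 4.68 FPKM in PS-MP replicates 1, 2 and 3 and 6.46, 6.36 and 5.87 FPKM in water replicates 1, 2 and 3. The lowest water library lay above the highest PS-MP library, and the log2 fold change was -0.38 ± 0.08 (SE; a fold of 0.77, adjusted p = 0.117 by limma). Rnf31, which overlaps Irf9 on the same strand and could share its reads, had a log2 fold change of -0.05. Stat2 (chromosome 10, 128270559 to 128292849) had 8.18, 8.45 and 8.71 FPKM in PS-MP and 10.1, 10.04 and 9.24 FPKM in water, again without overlap, with a log2 fold change of -0.20 ± 0.07 (SE; adjusted p = 0.297 by limma).

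Irf7, which amplifies the type I response once interferon has been made, had 4.05, 4.59 and 4.44 FPKM in PS-MP and 4.45, 4.14 and 4.52 FPKM in water. Its log2 fold change was 0.00, with a 95% interval of -0.20 to 0.19. Irf1, the first factor induced by interferon gamma, had 4.65, 4.88 and 4.79 FPKM in PS-MP and 4.64, 4.36 and 4.52 FPKM in water. Its PS-MP values all lay above its water values, though by little, and its log2 fold change was 0.07 with an interval of -0.10 to 0.25 (adjusted p = 0.72 by limma).

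Isg15, a ubiquitin-like protein that is attached to other proteins in interferon-treated cells (chromosome 4, 156199424 to 156200818), had the lowest fold change of the set. Its levels were 1.62, 1.91 and 1.596 FPKM in PS-MP and 3.92, 2.26 and 3.37 FPKM in water, with means of 1.71 ± 0.17 FPKM in PS-MP and 3.18 ± 0.84 FPKM in water (SD, n = 3 each). The groups did not overlap, but water replicate 2 lay close to PS-MP replicate 2. These levels rested on 16, 23 and 18 reads in PS-MP and 45, 29 and 37 reads in water. The exact Poisson 95% intervals, which cover counting error only, were 1.21 to 2.86 FPKM in PS-MP replicate 2 and 1.52 to 3.25 FPKM in water replicate 2, and so overlapped. The log2 fold change was -0.71 ± 0.17 (SE; 95% interval -1.12 to -0.31; adjusted p = 0.143 by limma). Without water replicate 2 it was -0.91 (adjusted p = 0.0551 by limma), and without the 3 libraries with Ucp1 reads it was -0.29. Usp18, the enzyme that removes ISG15 and also blocks the type I receptor, had 2.41, 2.92 and 2.86 FPKM in PS-MP and 2.76, 2.77 and 2.64 FPKM in water, with overlapping groups and a log2 fold change of 0.00 (interval -0.23 to 0.23).

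Immunity-related GTPases, which are recruited to the vacuoles of intracellular parasites and bacteria, were among the more abundant genes of the set in both groups. Igtp (Irgm3; chromosome 11, 58199556 to 58207591) had 6.35, 7.04 and 6.40 FPKM in PS-MP and 10.4, 9.10 and 8.38 FPKM in water. Irgm2 (chromosome 11, 58199618 to 58222782) had 9.34, 10.1 and 9.70 FPKM in PS-MP and 12.4, 11.5 and 13.1 FPKM in water. Groups did not overlap in either gene. The log2 fold change was -0.46 ± 0.10 for Igtp (SE; adjusted p = 0.108 by limma) and -0.33 ± 0.07 for Irgm2 (SE; adjusted p = 0.124 by limma). Both genes lie on the same strand and overlap in the annotation, so their reads cannot be separated with certainty and they are not independent observations. Irgm1, the third regulatory member of the family, lies elsewhere on chromosome 11 (48861968 to 48871683) and had 6.95, 6.25 and 7.06 FPKM in PS-MP and 7.54, 7.79 and 7.81 FPKM in water. Its groups did not overlap, with a log2 fold change of -0.18 ± 0.08 (SE; adjusted p = 0.374 by limma).

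The effector GTPases of the same family varied more between libraries. Iigp1 (Irga6), the most abundant gene of the set, had 33.8, 40.1 and 36.3 FPKM in PS-MP and 49.7, 33.4 and 54.2 FPKM in water. Water replicates 1 and 3 lay above every PS-MP library, whereas water replicate 2 was the lowest of all 6. In Ifi47 (Irgd) the water libraries were placed likewise, with 3.31, 3.27 and 3.44 FPKM in PS-MP and 4.21, 3.20 and 4.43 FPKM in water. The log2 fold changes were -0.29 for Iigp1 (interval -0.68 to 0.11) and -0.20 for Ifi47 (interval -0.48 to 0.08). Without water replicate 2 both had an unadjusted p under 0.05, at -0.50 for Iigp1 and -0.33 for Ifi47.

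Guanylate-binding proteins, GTPases that coat and lyse such vacuoles, did not separate the groups. Gbp2 had 1.40, 1.222 and 1.33 FPKM in PS-MP and 1.07, 1.43 and 0.88 FPKM in water, with a log2 fold change of 0.17 (interval -0.15 to 0.49). Gbp3 (interval -0.42 to 0.41) and Gbp7 (interval -0.39 to 0.37) both had a log2 fold change of -0.01. Reads may be split between these close relatives by the counting. The T cell-attracting chemokine Cxcl9, a marker of interferon-gamma action, had 1.67, 1.19 and 1.31 FPKM in PS-MP and 1.68, 1.154 and 1.39 FPKM in water. Cxcl10, induced by both interferon types, had 0.51, 0.70 and 0.39 FPKM in PS-MP and 0.73, 0.50 and 0.34 FPKM in water. Neither chemokine separated the groups, with intervals of -0.35 to 0.32 and -0.38 to 0.42.

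The Ifit genes, whose proteins bind foreign RNA ends, lie side by side on chromosome 19 and overlapped between the groups throughout. Ifit1 had 1.99, 1.54 and 2.60 FPKM in PS-MP and 2.355, 1.999 and 1.997 FPKM in water. Ifit2 had 0.95, 0.73 and 1.21 FPKM in PS-MP and 1.09, 0.66 and 1.19 FPKM in water. Ifit3 had 2.54, 2.98 and 4.34 FPKM in PS-MP and 3.02, 2.91 and 3.63 FPKM in water. PS-MP replicate 3 was the highest of the 6 libraries for all 3 genes, and the fold changes were -0.06, -0.01 and 0.02 on the log2 scale. Rsad2 (viperin), which blocks viral RNA synthesis, was likewise highest in PS-MP replicate 3 (2.66, 2.16 and 3.37 FPKM in PS-MP and 3.02, 2.42 and 2.75 FPKM in water).

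Oas enzymes, which make the messenger that activates RNase L, had low levels in both groups and no separation. Oas1a averaged 0.72 ± 0.27 FPKM in PS-MP and 0.73 ± 0.04 in water, and Oas2 0.67 ± 0.17 in PS-MP and 0.58 ± 0.09 in water (SD, n = 3 each). Oasl1, a relative without that activity that restrains Irf7 translation, spanned 1.64 to 3.20 FPKM in PS-MP and 1.82 to 2.93 FPKM in water. Oasl2 averaged 0.79 ± 0.03 FPKM in PS-MP and 0.82 ± 0.12 in water (SD, n = 3 each). The Mx genes, dynamin-like GTPases that are defective in C57BL/6 mice at the protein level, had the highest fold changes of the 37. Mx1 had 0.34, 0.51 and 0.89 FPKM in PS-MP and 0.33, 0.45 and 0.29 FPKM in water, with a log2 fold change of 0.31 (interval -0.12 to 0.73). Its highest value was again that of PS-MP replicate 3. Mx2 had 1.99, 2.05 and 1.89 FPKM in PS-MP and 1.42, 1.81 and 1.83 FPKM in water, without overlap, with a log2 fold change of 0.18 (interval -0.07 to 0.44; adjusted p = 0.527 by limma).

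**Figure D2:**
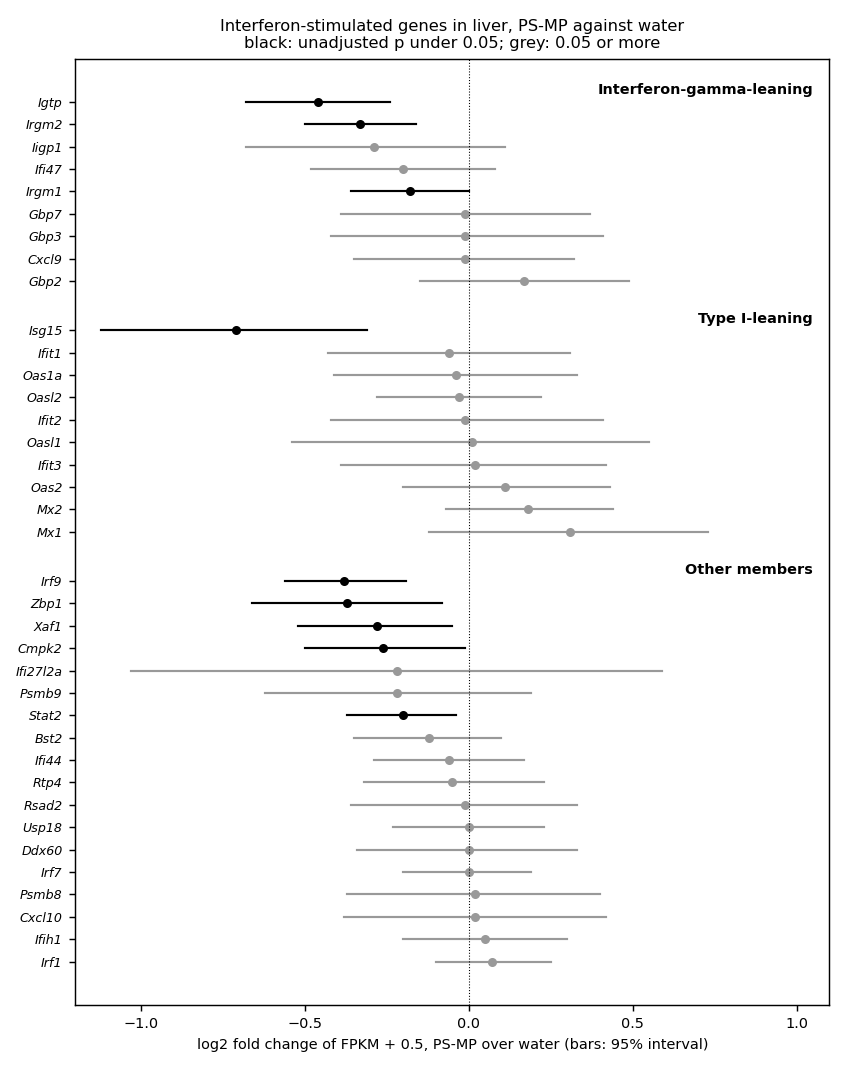
Log2 fold change of FPKM + 0.5, PS-MP over water, with its 95% interval (x axis) for each of the 37 genes, arranged by class (y axis); black marks an unadjusted p under 0.05 and grey 0.05 or more. All 9 black points lie left of 0, from -0.71 for Isg15 to -0.18 for Irgm1, and the Ifit, Oas and Gbp intervals span 0.

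Among the remaining effectors, 3 had an unadjusted p under 0.05. Zbp1, a sensor of Z-form nucleic acid that can trigger cell death, had 0.84, 1.07 and 0.70 FPKM in PS-MP and 1.23, 1.17 and 1.39 FPKM in water (log2 fold change -0.37 ± 0.13, SE; adjusted p = 0.278 by limma). Xaf1, a pro-apoptotic protein, had 0.72, 0.66 and 0.84 FPKM in PS-MP and 0.997, 0.98 and 1.03 FPKM in water (log2 fold change -0.28 ± 0.10, SE; adjusted p = 0.301 by limma). Cmpk2, a mitochondrial nucleotide kinase that neighbours Rsad2 on chromosome 12, had 0.81, 0.99 and 0.98 FPKM in PS-MP and 1.11, 1.29 and 1.224 FPKM in water (log2 fold change -0.26 ± 0.11, SE; adjusted p = 0.36 by limma). None of the 3 overlapped between the groups. All of these levels are near 1 FPKM, and neighbouring Rsad2 had a log2 fold change of -0.01.

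Antigen-processing genes of the set did not separate the groups. Psmb8, an immunoproteasome subunit, averaged 1.84 ± 0.43 FPKM in PS-MP and 1.81 ± 0.36 in water. Its partner Psmb9, which overlaps Tap1, averaged 0.98 ± 0.31 in PS-MP and 1.21 ± 0.25 in water (SD, n = 3 each). Bst2 (tetherin), which holds budding virions at the cell surface, was the second most abundant gene of the set, with 32.3, 40.5 and 33.0 FPKM in PS-MP and 40.5, 37.8 and 36.5 FPKM in water, and its groups overlapped. Ifih1 (MDA5), the sensor of long double-stranded RNA, averaged 4.28 ± 0.50 FPKM in PS-MP and 4.10 ± 0.35 in water (SD, n = 3 each). The intervals of Ddx60 (-0.34 to 0.33), Rtp4 (-0.32 to 0.23), Ifi44 (-0.29 to 0.17) and Ifi27l2a (-1.03 to 0.59) also spanned 0. Ifi27l2a rested on 9 to 33 reads per library, and its highest value, 4.69 FPKM, and its lowest, 1.40 FPKM, were both in water.

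The classes were set side by side to ask whether type I-leaning and interferon-gamma-leaning genes differed in how they compared between PS-MP and water. Of the 10 type I-leaning genes 5 had a negative and 5 a positive fold change, the median log2 fold change was 0.00, and 1 (Isg15, lower) had an unadjusted p under 0.05. Of the 9 interferon-gamma-leaning genes 8 had a negative fold change, the median was -0.18, and 3 had an unadjusted p under 0.05, all of them lower, all of them Irg genes and 2 of them overlapping in the genome. As shares, 10% of the type I-leaning and 33.3% of the interferon-gamma-leaning genes were lower at an unadjusted p under 0.05, against 5.57% of all genes tested. Fold changes were negative in 50% of the type I-leaning and 88.9% of the interferon-gamma-leaning genes, against 46.3% of all genes tested. Within that class the 5 Irg genes ran from -0.46 to -0.18, and the Gbp genes and Cxcl9 from -0.01 to 0.17. Irg genes outside the set did not all share the range of those in it. Tgtp1 (-0.34) and Gm12250 (-0.25) lay within that range. Gm4841 (-0.11), Gm4951 (-0.04) and Tgtp2 (-0.01) had smaller negative fold changes. Gm5431 was at 0.13, with all PS-MP values above all water values. Apart from Gm4951, these genes had 4 to 25 reads per library. The class medians are descriptions of chosen lists, and the difference between the classes was not tested.

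By library, the mean log2(FPKM + 0.5) of the interferon-gamma-leaning class was 2.28, 2.20 and 2.22 in PS-MP and 2.42, 2.26 and 2.46 in water. That of the type I-leaning class was 0.76, 0.90 and 0.96 in PS-MP and 0.96, 0.83 and 0.90 in water. Groups overlapped in both classes; in the interferon-gamma-leaning class, water replicate 2 lay below PS-MP replicate 1. The type I mean minus the interferon-gamma mean was -1.52, -1.30 and -1.26 in PS-MP and -1.46, -1.43 and -1.56 in water, with overlap. Without the 3 libraries with Ucp1 reads, a fit in which water replicate 2 is the lone water library, the interferon-gamma-leaning median was 0.04. Without Ifi47, whose assignment to the Irg family was a choice, it was -0.10. Over the 37 genes, PS-MP replicates 1, 2 and 3 held the highest value in 0, 8 and 7 genes, and water replicates 1, 2 and 3 in 11, 2 and 9. The lowest value was in PS-MP replicates 1, 2 and 3 in 14, 6 and 4 genes, and in water replicates 1, 2 and 3 in 1, 8 and 4.

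**Figure D3:**
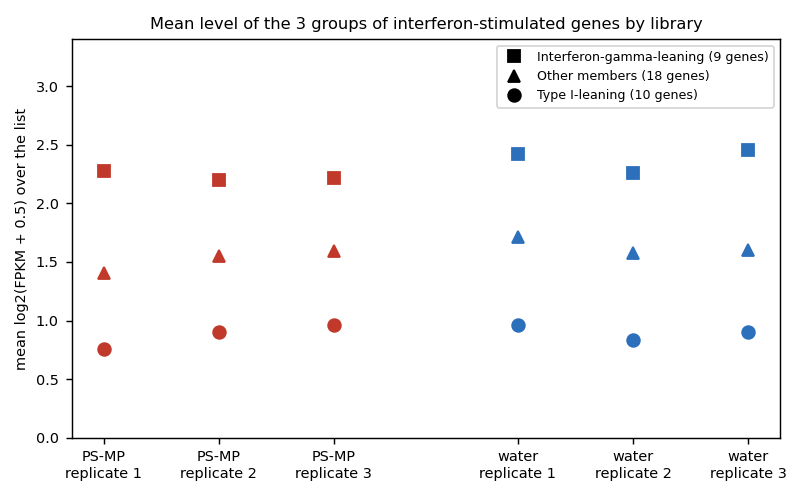
Mean log2(FPKM + 0.5) in each library (x axis, PS-MP in red, water in blue) over the 9 interferon-gamma-leaning genes (squares), 18 other genes (triangles) and 10 type I-leaning genes (circles). The squares of water replicates 1 and 3 (2.42 and 2.46) lie above the other 4, which run from 2.20 to 2.28, and the circles of the groups overlap.

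Further genes of the pathway, outside the 37, gave no call either. Of 38 further type I-leaning genes tested, 7 had an unadjusted p under 0.05 with lower and 2 with higher values in PS-MP, and the median log2 fold change was -0.08. These are 18.4% lower and 5.26% higher, against 5.57% lower and 7.49% higher among all genes tested. The 2 with the smallest p were Lgals3bp, a secreted galectin-binding glycoprotein (19.4 ± 0.67 FPKM in PS-MP and 23.96 ± 0.725 in water, SD, n = 3 each; log2 fold change -0.30, adjusted p = 0.112 by limma), and Ly6e, a membrane protein that restricts coronavirus entry (16.7 ± 0.81 in PS-MP and 20.3 ± 0.98 in water, SD, n = 3 each; -0.27, adjusted p = 0.164 by limma). Of 20 further interferon-gamma-leaning genes, 1 was lower (5.0%, against 5.57% of all genes tested) and 2 higher (10%, against 7.49%) at an unadjusted p under 0.05, and the median was -0.01. The 2 with the smallest p were both higher: Gbp2b with 0.95, 0.71 and 0.78 FPKM in PS-MP and 0.19, 0.46 and 0.32 FPKM in water (log2 fold change 0.69, adjusted p = 0.11 by limma), and Nlrc5, the activator of MHC class I genes, at 0.25 (adjusted p = 0.301 by limma). Gbp2b is a close relative of the other Gbp genes, and its 8 to 35 reads per library may include theirs. Of 25 genes of antigen processing and MHC, 0 had an unadjusted p under 0.05 in limma-trend, and the median was 0.00, with Canx and Psme2 having the smallest p (log2 fold change 0.14 for each).

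Among 16 sensors and adaptors tested, 3 had an unadjusted p under 0.05 with lower (18.8%, against 5.57% of all genes tested) and 1 with higher values in PS-MP (6.25%, against 7.49%), and the median was 0.01. Dhx58 (LGP2), a helicase that regulates the RNA sensors RIG-I and MDA5, had 2.01, 2.47 and 2.46 FPKM in PS-MP and 3.42, 3.99 and 3.41 FPKM in water (log2 fold change -0.55 ± 0.11, SE; adjusted p = 0.103 by limma), with no overlap. Irf5, a factor of macrophage activation, had 2.42, 3.30 and 2.75 FPKM in PS-MP and 1.90, 1.89 and 1.83 FPKM in water (log2 fold change 0.48 ± 0.12, SE; adjusted p = 0.144 by limma); it overlaps Tnpo3 on the other strand. Among 13 negative regulators 2 were higher (15.4%, against 7.49% of all genes tested) and 1 lower (7.69%, against 5.57%) at an unadjusted p under 0.05, with a median of 0.02. Socs3, which is induced by STAT3 and restrains cytokine receptors, had 2.54, 4.90 and 2.88 FPKM in PS-MP and 1.78, 1.204 and 1.81 FPKM in water (log2 fold change 0.88 ± 0.23, SE; adjusted p = 0.168 by limma). Cish, a STAT5 target of the same family, had 0.44, 2.70 and 1.149 FPKM in PS-MP and 0.54, 0.25 and 0.41 FPKM in water, with overlap and a high PS-MP replicate 2. Socs1, the main inhibitor of the interferon receptors, had at most 4 reads in a library and was not tested.

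**Figure D4:**
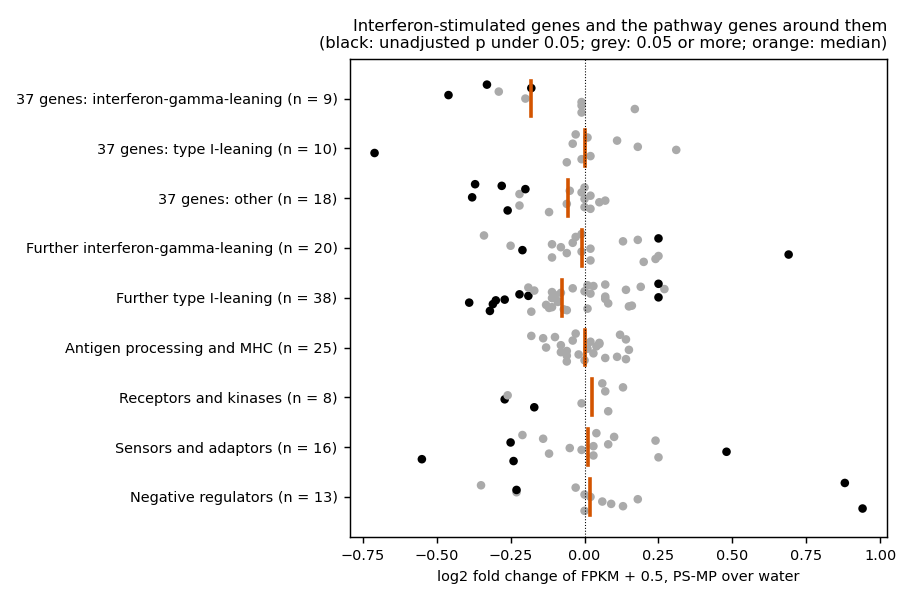
Log2 fold change of FPKM + 0.5, PS-MP over water (x axis), of each tested gene (points) in the 3 classes of the 37 genes and in 6 lists of pathway genes (y axis); black marks an unadjusted p under 0.05, and the orange bar the median of each list. Medians run from -0.18 for the interferon-gamma-leaning genes to 0.03 for the receptors and kinases, and black points outside the 37 genes lie on both sides of 0.

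Markers of cells that make or answer interferon were measured beside these genes. In a bulk sample, fewer cells of a type and less RNA per cell cannot be told apart. B and plasma cell markers summed to 6.74 to 8.80 FPKM in PS-MP and 9.93 to 12.1 FPKM in water, with no marker at 0 in every library. Of the 10, 6 were tested, and all 6 had a negative fold change (100%, against 46.3% of all genes tested). At an unadjusted p under 0.05, 1 of them was lower (16.7%, against 5.57%). T and NK cell markers summed to 2.64 to 3.61 FPKM in PS-MP and 2.29 to 2.81 FPKM in water, and 1 of 16 had enough reads to test. Kupffer cell markers summed to 135.5 to 173 FPKM in PS-MP and 139.9 to 150.3 FPKM in water. Fold changes were positive for 10 of 12 (83.3%, against 53.7% of all genes tested). At an unadjusted p under 0.05, 1 (Cd5l) was higher (8.33%, against 7.49%). Dendritic cell markers, a list that includes Bst2, summed to 35.8 to 44.0 FPKM in PS-MP and 40.1 to 44.5 FPKM in water. Most of each sum was Bst2, a gene of the set, with 32.3 to 40.5 FPKM in PS-MP and 36.5 to 40.5 FPKM in water. The sums therefore say little about the other dendritic cell markers. Sinusoidal endothelial markers summed to 67.6 to 78.6 FPKM in PS-MP and 65.5 to 80.7 FPKM in water. Of 10 monocyte and neutrophil markers 3 were tested, and the list summed to 2.23 to 4.27 FPKM in PS-MP and 3.401 to 4.43 FPKM in water, with Ly6g at 0 throughout. The part of any of these cell types in the interferon-stimulated genes was not tested.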

How the data were processed

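Liver RNA-seq libraries, 3 labelled PS-MP and 3 labelled water, were analysed, grouped by their labels. For each library the authors deposited FPKM values by gene. Tools named in the submitters' processing notes are CASAVA, FastQC, MultiQC, Trimmomatic 0.38, HISAT2 2.1.0, featureCounts 1.6.0 and DESeq2 1.22.1. Whether counting used strand is not given here. The notes name the build GRCh38, but all 55536 identifiers match mouse GENCODE M21 (GRCm38), used for symbols, positions and exon lengths. FPKM times merged exon length was a whole multiple of 1 step per library within 0.001 reads for 100.0% of values above 0, which gives reads and depth (13082210 to 16948343).

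The low-count rule asked for 0.66 CPM (10 reads at the median depth) or more in 3 libraries or more, with 15 reads in total. Genes that met it were tested with limma-trend (limma 3.58.1, R 4.3.3) on log2(FPKM + 0.5), the group being the sole term, with Benjamini-Hochberg adjustment over all 13299 genes at 0.05. The procedure was checked on simulated data, in which most large changes were called and most small ones were missed. The genes, lists and tests were chosen with earlier results of these data known. Genes of the set with an unadjusted p under 0.05 are given in full, and of each pathway list the 2 genes with the smallest p. Genes of the pathway outside this rule were chosen after their values were seen, as were Rnf31 and Ucp1. They are Ifng, Ifnlr1, Socs1, Tgtp1, Tgtp2, Gm12250, Gm4841, Gm4951, Gm5431 and those at 0. Alternatives changed the model, scaling, pseudocount, low-count rule, empirical Bayes setting, libraries, the replicate block and the place of Ifi47. Promoters come from the RefSeq table for GRCm38.p6. Another gene of the pathway is not reported here.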

Additional observations from a re-analysis of the deposited data

How the results depend on the processing

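No gene of the set passed an adjusted p of 0.05 in limma-trend (9 at an unadjusted p under 0.05), limma-voom on the recovered reads (8) or any of the 16 alternative fits. Across all genes tested, 1737 in limma-trend and 1774 in limma-voom had an unadjusted p under 0.05, in either direction. The 9 genes kept negative fold changes in all 16, which the absence of overlap between their groups fixes for another pseudocount or a left-out library. Leaving out each library in turn gave 5 to 9 lower and 0 to 1 higher genes of the set at an unadjusted p under 0.05 (the 1 was Mx1 without PS-MP replicate 1 and Gbp2 without water replicate 2), and medians of -0.10 to -0.01 over the set. Across all genes tested, 1193 to 1776 had an unadjusted p under 0.05 in these fits, in either direction. Without the 3 libraries with brown fat transcripts, the interferon-gamma-leaning median was 0.04. This fit assumes that the lone water library varies like the PS-MP ones. Over the whole table, limma-voom called 133 genes (67 higher, 66 lower). Without a low-count rule, limma-trend called 0 (2064 at an unadjusted p under 0.05), and without the brown fat libraries 0 (1037). Leaving out each library gave 0 to 36 calls (0 to 21 higher, 0 to 16 lower). The replicate block gave 23 (10 higher, 13 lower). At an unadjusted p under 0.05 it gave 8 genes of the set, all lower, and 1737 of all genes tested, in either direction. The replicate numbers were not shown to pair libraries: deviations of same-numbered libraries correlated at -0.036, 0.047 and -0.01 over genes, and PS-MP replicate 1 did not correlate best with its own number. The causes of these differences were not tested. Depth limits low genes of the set such as Isg15, Ifi27l2a and Cxcl10, with 9 to 45 reads per library.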
